A study of Mus musculus with 72 samples.

Results

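The polysome association of each RNA was described in lymphomas of mice that had received vehicles, with no active drug. Polysomal RNA was set against the total cytoplasmic RNA (input) of the same lysate, with 6 polysomal and 6 input libraries, which are 12 of the 72 libraries of the study. The members are the 29750 genes listed in both tables of the acute study, out of 36300 in either table. Of these, 15035 had enough counts to be tested. The 5399 genes listed in the input table alone had at most 7 counts in a vehicle library, and the 1151 listed in the polysomal table alone had at most 12.

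The cells were Eµ-Myc B-lymphoma cells, in which an immunoglobulin enhancer drives a Myc transgene in the B lineage. They carried the MSCV Gfp vector and came from 1 clone, number 4242, so the values describe a single tumour clone. The cells had been transplanted into C57BL/6 mice, which received both vehicles on day 10, and lymph nodes were taken after 2 h. Polysomal RNA was pooled from the part of a 10 to 40% sucrose gradient that holds RNAs with 4 or more ribosomes, and RNA was depleted of ribosomal RNA before sequencing. The polysomal and input libraries with the same number were treated as 1 mouse. The labels do not state in words that each number is a separate animal, so the p-values measure the spread between these 6 lysates. For a comparison with untreated cells of another kind, 3 drug-naive lines were used. These had been grown for 2 to 3 passages from nodes of vehicle-treated mice that carried clone 107.

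An mRNA that initiates often and has room for many ribosomes sediments deep in a gradient, while a free RNA or an RNA with few ribosomes stays near the top. The mRNAs of ribosomal proteins begin with a terminal oligopyrimidine (TOP) tract and move between free particles and polysomes under the control of mTORC1. Iron-responsive elements and the upstream reading frames of stress mRNAs are other classic elements that set ribosome loading. Mitochondrial mRNAs are translated inside the organelle by its own ribosomes, and nuclear and small structured RNAs are not translated at all, so these give a view of what else enters a polysomal pool.

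Sequences of 9 mRNAs are shown first because their ratios are given later. The first 4 are the whole coding sequences of mRNAs with very short reading frames, with the start and stop codons in capitals. They belong to Rpl41 (chr10:128548114-128549305, minus strand), Rpl39 (chrX:37082520-37085402, minus strand), Tmsb4x (chrX:167207093-167209315, minus strand) and Tmsb10 (chr6:72957347-72958748, minus strand), and encode 25, 51, 44 and 44 amino acids.
Rpl41: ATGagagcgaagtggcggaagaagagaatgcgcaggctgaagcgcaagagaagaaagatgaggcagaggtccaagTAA
Rpl39: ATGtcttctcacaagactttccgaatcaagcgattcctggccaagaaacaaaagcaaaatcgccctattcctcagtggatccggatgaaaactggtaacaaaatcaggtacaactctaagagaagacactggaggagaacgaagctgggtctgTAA
Tmsb4x: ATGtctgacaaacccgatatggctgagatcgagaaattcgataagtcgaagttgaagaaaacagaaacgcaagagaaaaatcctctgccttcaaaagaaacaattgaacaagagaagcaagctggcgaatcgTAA
Tmsb10: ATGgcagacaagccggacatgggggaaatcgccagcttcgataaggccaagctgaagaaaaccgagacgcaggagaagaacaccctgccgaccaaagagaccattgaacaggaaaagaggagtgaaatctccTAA

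The other 5 are short sites in untranslated regions. The iron-responsive elements of Fth1 (chr19:9980598-9985098, plus strand), Ftl1 (chr7:45457944-45459884, minus strand) and Alas2 (chrX:150547375-150570638, plus strand) have their loop in capitals. The 3′ stem-loops of the histone genes Hist1h4d (chr13:23581598-23582735, plus strand) and Hist1h1c (chr13:23738808-23740367, plus strand) are in capitals themselves. All coordinates are those of the gene, and coordinates and sequences are from GENCODE M21 on GRCm38.
Fth1: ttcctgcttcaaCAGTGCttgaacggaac
Ftl1: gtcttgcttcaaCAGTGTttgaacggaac
Alas2: ttggttcgtcctCAGTGCagggcaacagg
Hist1h4d: caaaGGCCCTTTTCAGGGCCacta
Hist1h1c: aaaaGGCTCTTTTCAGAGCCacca

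Libraries held 11.53 to 19.62 M gene counts in the polysomal fraction and 18.81 to 21.52 M in the input. Levels are given as counts per M (CPM) with TMM scaling between libraries, and ratios as log2 of polysomal over input. A ratio of 0 means that an RNA took the same place among the RNAs of both fractions, not that all of it was on polysomes. Transcripts of the B lineage were present in both fractions: Cd79a, the signalling chain of the B cell receptor, had 254, 301 and 367 CPM (lowest, median and highest) in polysomal RNA, against 281, 291 and 305 CPM in input. Of the surrogate light chain genes of B cell precursors, Igll1 was at most 1.51 counts per M of the library and Vpreb1 at most 0.663. Since these are bulk samples, fewer cells of a type and less RNA per cell cannot be told apart.

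Of the 15035 genes tested, 4290 (28.5%) were higher and 4895 (32.6%) lower in polysomal than in input RNA, at an adjusted p under 0.05 in edgeR's quasi-likelihood test with a block on each mouse. With at least a 1.5-fold difference as well, 861 (5.73%) were higher and 1761 (11.7%) lower. The polysomal and input values of the 6 mice did not overlap for 3660 genes (24.3%). Since most genes passed the test, a call by itself says little about a class, and each class is therefore given by its counts and its median beside the median of all genes tested, which was -0.04. The protein-coding genes of the nucleus held the middle, with a median of 0.00 over 12013 genes, of which 3739 were higher and 3428 lower.

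**Figure D1:**
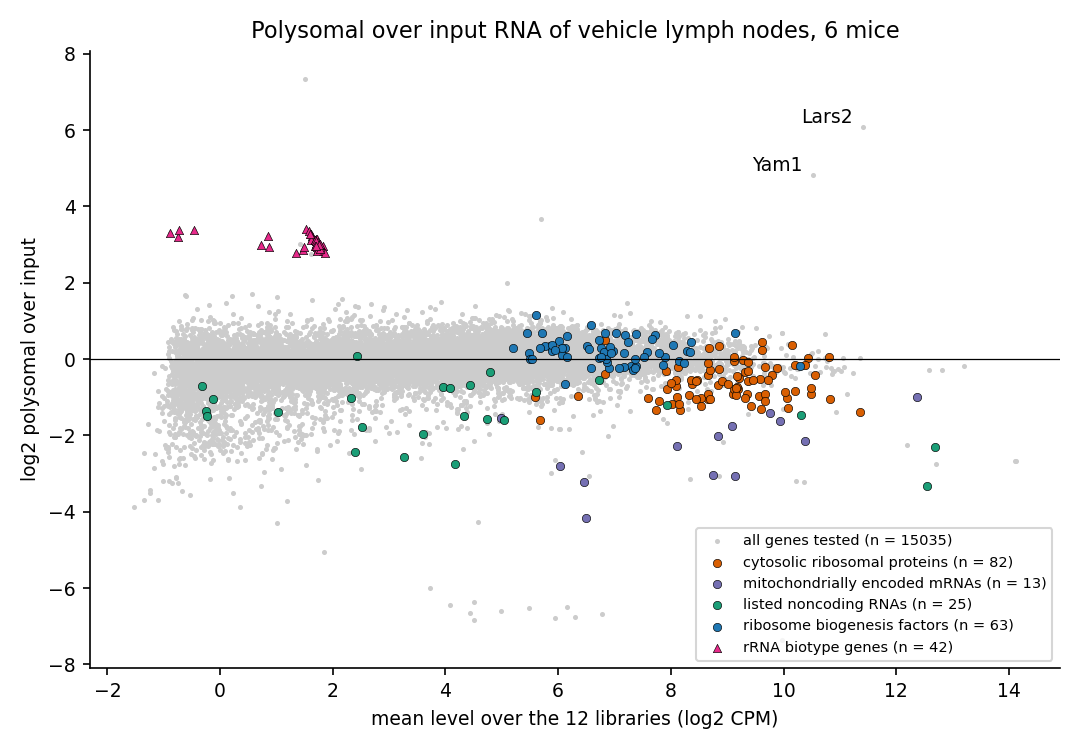
Log2 polysomal over input ratio (vertical axis) against the mean level over the 12 libraries (horizontal axis, log2 CPM) for the 15035 genes tested, each point a gene. Cytosolic ribosomal protein mRNAs, mitochondrially encoded mRNAs and listed noncoding RNAs sit mostly below 0, ribosome biogenesis mRNAs mostly above it, and the 42 genes of the rRNA biotype between 2.77 and 3.41.

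Most kinds of noncoding RNA were lower in polysomal RNA. Of 193 long intergenic RNAs tested, 135 were lower and 15 higher, with a median of -0.81. Of 199 antisense RNAs, 131 were lower and 12 higher, with a median of -0.74. Where an antisense gene overlaps its partner the reads of both cannot be told apart, since the strand setting of the counting is not given in the sources used here.

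The 6 measured nuclear-retained RNAs of 11 listed were all at least 1.5-fold lower, with a median of -1.27 that ran from -1.47 to -0.99 over the mice. Malat1, a RNA of nuclear speckles, had 122, 167 and 190 CPM in polysomal RNA, against 212, 412 and 525 CPM in input (log2 ratio -1.19 ± 0.07 SE, adjusted p = 6.23e-09). Its lowest input library was above its highest polysomal one. Neat1, the scaffold of paraspeckles, had 6.59, 12.9 and 19.2 CPM in polysomal RNA, against 16.9, 35.2 and 55.5 CPM in input. Its groups overlapped, because input libraries differed widely between mice, yet all 6 mice were lower, from -1.61 to -1.32. Kcnq1ot1, the antisense RNA of an imprinted domain, was lower by the same order (-1.59 ± 0.07).

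RNAs made by RNA polymerase III and other small structured RNAs were lower by more. Of 16 listed, 9 were tested, 8 of them were at least 1.5-fold lower, and the median was -2.29 (-2.87 to -1.92 over mice). Rn7sk, which holds the elongation factor P-TEFb inactive, had 1404, 1888 and 2382 CPM in polysomal RNA, against 17030, 18010 and 23800 CPM in input (log2 ratio -3.34 ± 0.13 SE, adjusted p = 1.41e-10), with a wide gap between the fractions. Rpph1, the RNA of the tRNA-trimming enzyme RNase P, had 2508, 3022 and 3599 CPM in polysomal RNA, against 12440, 14320 and 16710 CPM in input. Terc, the telomerase RNA, stood at -2.75 ± 0.12 and Rny1, a Y RNA bound by the Ro protein, at -2.58 ± 0.13. Rnu12, a small RNA of the minor spliceosome, was the 1 tested member that was not called (0.07).

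The host transcripts of small nucleolar RNAs are spliced and reach the cytoplasm, and several have TOP starts. All 10 that were tested, of 20 listed, were lower, 8 of them by at least 1.5-fold, and the median was -0.80 (-1.08 to -0.57 over mice), which lies between nuclear RNAs and mRNAs. Gas5 had 69.8, 86.6 and 121 CPM in polysomal RNA, against 118, 126 and 141 CPM in input. It was among the hosts with the smaller difference (log2 ratio -0.56 ± 0.08), with an overlap of the groups. Snhg1, a host outside the naming rule and chosen after its values were seen, had 32.4, 36.1 and 43.2 CPM in polysomal RNA, against 58.9, 65.6 and 71.1 CPM in input, with no overlap. Genes annotated as small nucleolar RNAs were lower as well: 68 of the 87 were lower and 5 higher, with a median of -0.98. Whether their reads came from mature RNAs or from unspliced hosts was not tested.

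All 13 mitochondrially encoded mRNAs were at least 1.5-fold lower in polysomal RNA, with no overlap between the fractions for any of the 13. The median was -2.15, with a range of -2.40 to -1.81 over mice. They encode core subunits of respiratory complexes I, III, IV and ATP synthase. The mRNA mt-Nd1, which encodes a subunit of complex I, had 175, 194 and 212 CPM in polysomal RNA, against 1396, 1633 and 1890 CPM in input (log2 ratio -3.05 ± 0.06 SE, adjusted p = 5.15e-13). The smallest difference was that of mt-Co1, the catalytic subunit of complex IV, with 3459, 3668 and 4576 CPM in polysomal RNA, against 6946, 7609 and 8054 CPM in input (-0.999 ± 0.06). The mitochondrial mRNAs thus differed among themselves by over 3 log2 units, down to mt-Atp8 at -4.16 ± 0.17. The mt-Atp8 frame overlaps mt-Atp6 and mt-Nd4l overlaps mt-Nd4, so the split of their reads is uncertain, and nuclear copies of mitochondrial sequence can share reads with all of them. The mitochondrial rRNAs mt-Rnr1 and mt-Rnr2 were lower too, mt-Rnr2 with 1233, 2404 and 3258 CPM in polysomal RNA and 7975, 10060 and 14170 CPM in input. The part of ribosomal RNA depletion in these 2 was not tested. For mt-Rnr1 the log2 ratio was -1.747, -1.274 and -1.502 in mice 2, 5 and 6, against -3.214, -2.455 and -2.796 in mice 1, 3 and 4. These mice split without overlap in the same direction for mt-Rnr2, mt-Atp8, mt-Nd3 and mt-Nd6. They overlapped for mt-Nd1, mt-Nd2, mt-Atp6 and mt-Co1. Mitochondrial genes together took 0.853 to 1.16% of polysomal counts and 2.62 to 3.20% of input counts.

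Among the listed classes of cytosolic mRNAs, cell type markers left aside, those of ribosomal proteins had the lowest median. Of the 82, 70 were lower and 6 higher, and 44 were at least 1.5-fold lower and 0 at least 1.5-fold higher. The class median was -0.67 (-0.95 to -0.57 over mice), at the 4.72nd percentile of coding genes, and the fractions did not overlap for 70 of the 82. Of the large subunit mRNAs 40 of 49 were lower, and of the small subunit mRNAs 30 of 33, with medians of -0.62 and -0.76. The libraries of mouse 4 stood apart from the other 5 mice, where the class median minus the median of all genes was -0.91, and between -0.65 and -0.55 in the others. Without mouse 4 the same difference was -0.59, against -0.64 with every mouse. Ribosomal protein genes have many processed pseudogenes, so reads can be shared or lost: 144 genes named as such pseudogenes were tested, of which 115 were lower and 7 higher, with a median of -0.58.

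The members of the class differed widely among themselves. Rplp0, which anchors the ribosomal stalk and was near the low end, had 1442, 1632 and 1816 CPM in polysomal RNA, against 3650, 4023 and 5102 CPM in input (log2 ratio -1.38 ± 0.05 SE, adjusted p = 1.34e-10). It encodes 317 amino acids, so a low ratio was not confined to the shortest members. Rps26, Rps27, Rpl32 and Rplp1 followed, at -1.35, -1.33, -1.31 and -1.27.

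The exceptions on the high side were Rpl36al, Rpl5, Rpl7, Rpl23, Rps24 and Rps3a1, from 0.51 down to 0.24. Rpl5 binds 5S rRNA and Mdm2, and had 869, 935 and 962 CPM in polysomal RNA, against 654, 666 and 695 CPM in input (0.46 ± 0.04, adjusted p = 1.49e-07), with all 6 polysomal libraries above all input libraries. Rpl36al, a close relative of Rpl36a, had 118, 138 and 149 CPM in polysomal RNA and 88.3, 95.03 and 104 CPM in input. Rpl3, Rpl4, Rpl9, Rpl11, Rpl21 and Rps6 were not called in either direction. Over the 82 members, the ratio was higher for longer proteins (Spearman rho 0.41, a description across genes that share libraries and are not independent).

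Over all coding genes the ratio also moved with protein length, but by much less. Since 4 ribosomes are needed to enter the pool, the genes encoding under 150 amino acids were set against those encoding over 600. The 837 short ones had a median of -0.18 and the 4155 long ones of 0.06, a difference of -0.24, which was between -0.32 and -0.11 in the 6 mice. Without the ribosomal proteins the difference was -0.21. From the shortest class up, the median was -0.30 for at most 50 amino acids (5 genes), -0.23 for 50 to 100, -0.16 for 100 to 150, -0.06 for 150 to 200, -0.02 for 300 to 400 and 0.05 for 600 to 800, and it stayed between -0.01 and 0.09 beyond. Spearman's rho over 12003 coding genes was 0.17. The ribosomal proteins, with a median of 149.5 amino acids, were thus set against a median of -0.11 for genes of their members' lengths, and the median of their differences from it was -0.55.

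**Figure D2:**
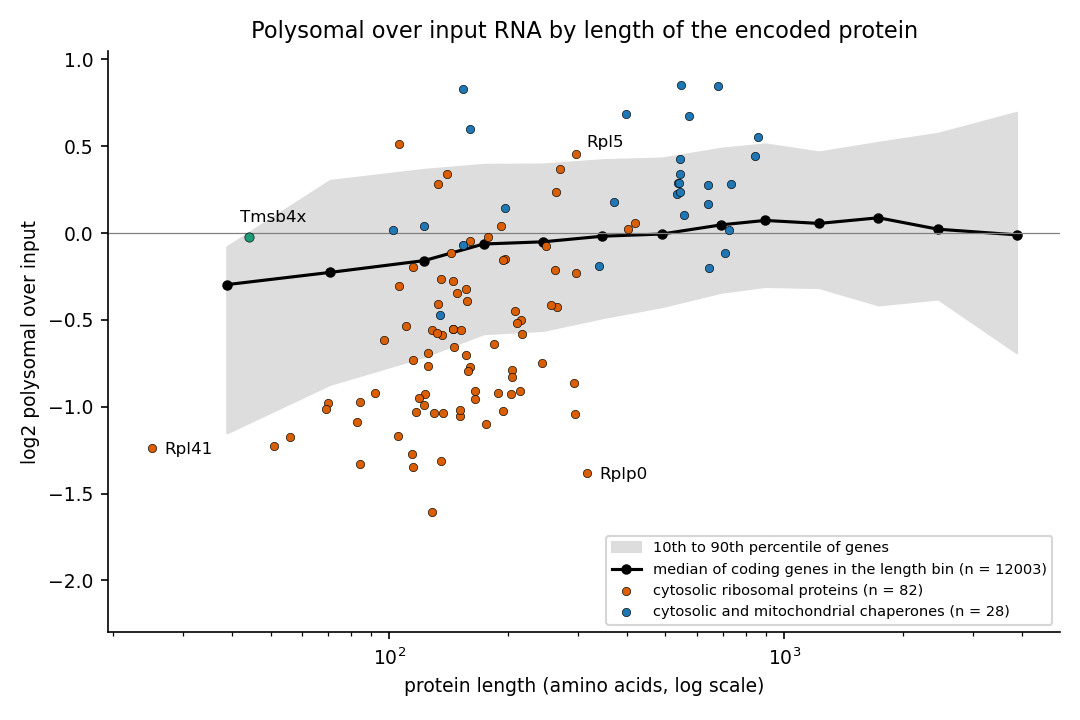
Log2 polysomal over input ratio (vertical axis) against the length of the encoded protein (horizontal axis, amino acids, log scale). The line joins the medians of length classes over 12003 coding genes and the band spans the 10th to 90th percentile. Orange points are the 82 ribosomal protein mRNAs, most of them below the band's middle, and blue points are 28 chaperone mRNAs.

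The mRNAs with the 4 short frames printed above differed from each other. Rpl41 had 407, 450 and 476 CPM in polysomal RNA, against 857, 973 and 1457 CPM in input (log2 ratio -1.24 ± 0.07 SE, adjusted p = 2.14e-09). Rpl39 was alike, with 218, 245 and 269 CPM in polysomal RNA and 469, 536 and 813 CPM in input (-1.23 ± 0.09). Neither gene's groups overlapped.

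Tmsb4x, whose product thymosin beta 4 binds actin monomers, has a frame shorter than that of Rpl39, and gave another picture. It had 332, 366 and 447 CPM in polysomal RNA, against 351, 364 and 460 CPM in input (-0.02 ± 0.04, adjusted p = 0.623), with 2 of 6 mice higher and the groups overlapping. Tmsb10, its relative with a frame of the same length, was at -0.16 ± 0.06 (adjusted p = 0.029). Its call was lost without mouse 1 (-0.12), without mouse 3 (-0.17) and without mouse 4 (-0.12), and without the mouse block (-0.17). Of the 4 short frames, those of both ribosomal proteins had far lower ratios than those of both thymosins.

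Base composition moved with the ratio as well. The median was -0.06 for transcripts with up to 40% GC (531 genes), 0.14 for 40 to 45% (2109 genes), 0.08 for 45 to 50%, -0.08 for 50 to 55% and for 55 to 60%, and 0.04 above 60% (569 genes), so it did not move in 1 direction. The difference between short and long proteins was -0.32 among genes with up to 50% GC and -0.18 among those with more. How far GC bias of the library preparation moved these values was not tested. The length of the 5′ UTR (medians of -0.03 to 0.01 over 6 classes) and the number of ATG triplets in it (-0.02 with 0, and 0.00 to 0.02 with 1 or more) moved little with the ratio, while for 3′ UTRs the median was -0.09 at up to 200 bases and 0.07 above 3000 bases.

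Other TOP mRNAs and the translation machinery split. Of 23 other mRNAs listed with a TOP start, 13 were lower and 8 higher, with a median of -0.18. Gnb2l1, which encodes the ribosome-bound scaffold RACK1, had 1460, 1593 and 1911 CPM in polysomal RNA, against 2536, 2873 and 3858 CPM in input (-0.91 ± 0.06 SE). The elongation factor Eef1b2 was lower too (-0.60 ± 0.07), and Eef1a1, Eef2 and Tpt1 by less (-0.29, -0.29 and -0.41). In the other direction, Hnrnpa1, a splicing regulator, had 482, 534 and 615 CPM in polysomal RNA, against 222, 250 and 282 CPM in input (1.12 ± 0.04, adjusted p = 8.94e-11). Nap1l1, a histone chaperone, and Ncl, a major nucleolar protein, stood at 0.68 and 0.66, and the poly(A)-binding protein Pabpc1 at 0.32.

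Of 37 initiation factor mRNAs, 17 were higher and 8 lower, with a median of 0.10. Eif4g2, a relative of eIF4G that lacks the eIF4E-binding part, had 904, 959 and 1054 CPM in polysomal RNA, against 466, 570 and 624 CPM in input (0.83 ± 0.06, adjusted p = 1.49e-08). Eif5 and Eif3j1 followed at 0.59 and 0.57, while Eif3i, Eif3d and Eif4ebp1, the repressor of eIF4E that mTORC1 phosphorylates, were lower (-0.42, -0.37 and -0.36). Among 20 aminoacyl-tRNA synthetases, 13 were higher and 6 lower (median 0.17). Those for histidine, glycine and leucine, Hars, Gars and Lars, were at 0.61, 0.56 and 0.50, and those for methionine, glutamine and valine, Mars, Qars and Vars, at -0.39, -0.39 and -0.35. Mitochondrial ribosomal proteins, which have no TOP start, had a median of 0.00, with 25 higher and 24 lower of 75.

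**Figure D3:**
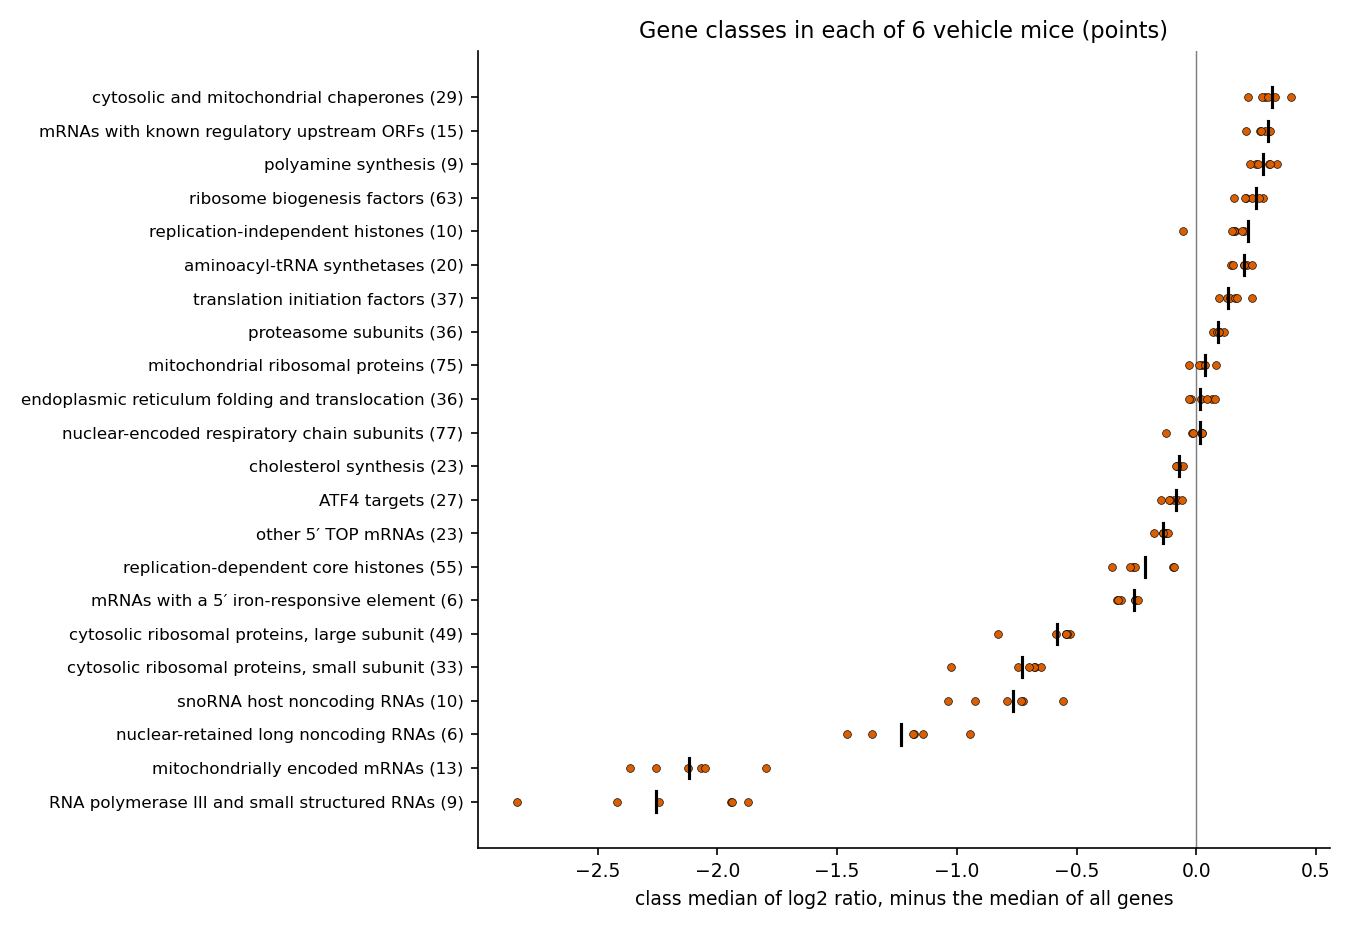
Median log2 polysomal over input ratio of gene classes minus the median of all genes (horizontal axis), with the number of tested members in brackets. Each point is 1 of 6 mice and the black bar is the value from the fit over all mice. Chaperone mRNAs lie above all genes in each mouse and ribosomal protein mRNAs below, and the noncoding and mitochondrial classes lie lowest.

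Ribosome biogenesis factors and chaperones were shifted upward, opposite to the ribosomal proteins themselves. Of 63 biogenesis factors, 40 were higher and 10 lower, 11 and 1 of them by at least 1.5-fold, with a median of 0.21 (0.12 to 0.25 over mice). Rrp15, which acts in rRNA processing, had 68.3, 72.5 and 79.8 CPM in polysomal RNA, against 29.2, 32.3 and 36.0 CPM in input (1.16 ± 0.05, adjusted p = 5.42e-10). Ebna1bp2 and Gtpbp4, nucleolar factors of the large subunit, stood at 0.90 and 0.69. Nop10, a small protein of H/ACA particles with 64 amino acids, was lower (-0.65 ± 0.05), as was Pes1 of the PeBoW complex (-0.24 ± 0.05).

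Of 29 chaperones, 20 were higher and 4 lower, 6 and 0 of them by at least 1.5-fold, with a median of 0.28 (0.18 to 0.35 over mice). Cct8, a subunit of the cytosolic chaperonin TRiC, had 570, 625 and 686 CPM in polysomal RNA, against 334, 346 and 365 CPM in input (0.85 ± 0.04, adjusted p = 9.3e-10). Hspa9, the mitochondrial Hsp70, had 764, 834 and 898 CPM in polysomal RNA and 438, 462 and 472 CPM in input. In both, all polysomal libraries lay above all input libraries. Hspa8, the constitutive cytosolic Hsp70, was lower (-0.20 ± 0.05), and Pfdn2 and Pfdn4, both prefoldin subunits, went opposite ways (0.83 and -0.47).

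By the naming rule, the 10 RNAs highest in polysomal over input were Lars2, Yam1, Mir6236, Hnrnpd, Rbm8a, Llph, Trim44, Trim37, Mrfap1 and Cfdp1, the first 3 of which are described further down. Hnrnpd, which encodes the AU-rich element binding protein AUF1, had 213, 241 and 310 CPM in polysomal RNA, against 71.4, 88.5 and 122 CPM in input (1.48 ± 0.05 SE, adjusted p = 4.22e-11). Rbm8a, a core protein of the exon junction complex, had 88.0, 94.3 and 98.2 CPM in polysomal RNA, against 32.5, 37.1 and 41.2 CPM in input (1.33 ± 0.05). Trim37, a ubiquitin ligase, had 97.8, 103 and 117 CPM in polysomal RNA and 36.5, 44.9 and 51.2 CPM in input. For these genes each polysomal library lay above each input library, and all 6 mice were higher. Llph, Trim44, Mrfap1 and Cfdp1 were between 1.29 and 1.21. The 10 lowest were all mitochondrial or small noncoding RNAs: mt-Atp8, Rn7sk, mt-Nd3, mt-Nd1, mt-Atp6, mt-Nd6, Rpph1, mt-Nd2, mt-Rnr2 and mt-Rnr1.

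**Figure D4:**
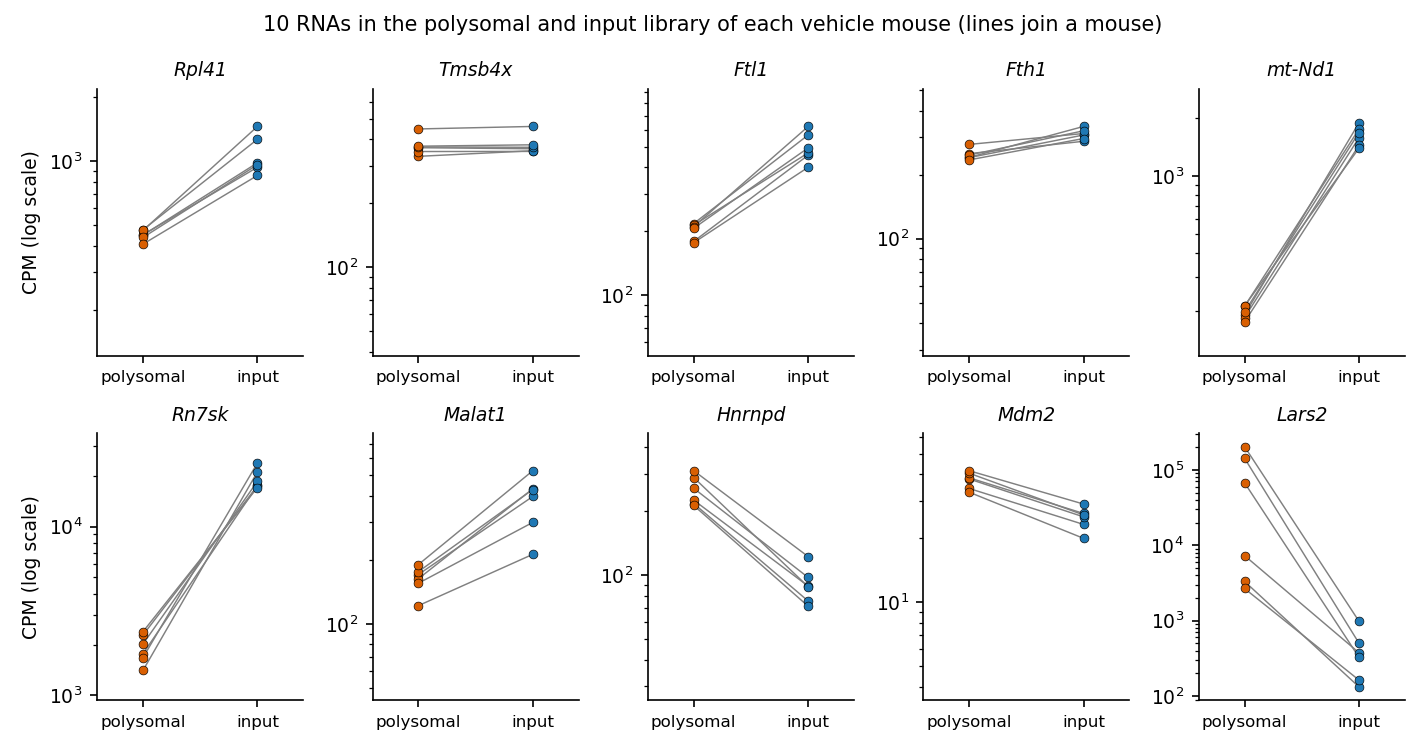
Level of 10 RNAs (vertical axes, CPM, log scale) in the polysomal and the input library of each of the 6 vehicle mice, joined by a line per mouse. The lines of Rpl41, Ftl1, mt-Nd1, Rn7sk and Malat1 go up toward the input, those of Hnrnpd, Mdm2 and Lars2 go down toward it, and those of Tmsb4x are close to level.

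The mRNAs with an iron-responsive element in the 5′ UTR, where iron regulatory proteins bind and block initiation, were lower in 5 of 6 cases, with a median of -0.30. The ferritin light chain mRNA Ftl1 had 177, 209 and 218 CPM in polysomal RNA, against 400, 481 and 622 CPM in input (log2 ratio -1.31 ± 0.05 SE, adjusted p = 1.65e-10). The ferritin heavy chain mRNA Fth1 had 235, 244 and 278 CPM in polysomal RNA, against 287, 310 and 337 CPM in input (-0.32 ± 0.05, adjusted p = 2.52e-05). Neither gene's groups overlapped, and the ratios of the light chain (-1.56 to -1.13 over mice) all lay below those of the heavy chain (-0.48 to -0.17). Ferritin genes have processed pseudogenes that can share reads. Alas2, the erythroid enzyme of heme synthesis, was at -0.94 ± 0.07 and the iron exporter Slc40a1 at -0.27, while Epas1 (-0.04, adjusted p = 0.425) was not called. Alas2 is also 1 of the 6 tested erythroid markers, all of which were lower (median -0.82). A search on the sense strand for C, 5 letters, CAGTGN and 5 letters that pair with the first 5 found the element in 5 of the 6 and in 15 of 11605 5′ UTRs of coding genes (0.129%). The 15 genes with a match had a median of -0.05, with 7 lower and 5 higher. They include the 5 listed genes, all of which were lower, so the 5 higher ones were all outside the list.

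The listed mRNAs with regulatory upstream reading frames, known to be loaded well under stress, were higher in 9 of 15 cases and lower in 2, with a median of 0.26. Ibtk had 70.3, 82.1 and 97.8 CPM in polysomal RNA, against 40.1, 49.4 and 61.1 CPM in input (0.78 ± 0.05), and Ifrd1 was at 0.73 ± 0.06. The best known members did not follow them. Atf4, the effector of the integrated stress response, had 97.1, 114 and 154 CPM in polysomal RNA and 108, 121 and 148 CPM in input (-0.07 ± 0.04, adjusted p = 0.126), and without mouse 4 it was called lower (-0.10). Atf5 was at 0.13 ± 0.08 (adjusted p = 0.159), and without mouse 4 it was called higher (0.20). Ppp1r15a (GADD34), which ends that response, was lower (-0.27 ± 0.08).

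Of 27 ATF4 target mRNAs, 13 were lower and 5 higher, with a median of -0.12. Slc7a11, the cystine importer, had 14.5, 20.0 and 24.9 CPM in polysomal RNA, against 34.4, 41.2 and 55.4 CPM in input (-1.09 ± 0.06, adjusted p = 4.46e-09), with no overlap. Chac1, which degrades glutathione, and Asns, asparagine synthetase, were at -0.45 and -0.35, while Cebpg, a partner of ATF4, was at 0.80 ± 0.05.

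Polyamine synthesis is a classic site of translational control. Of 9 mRNAs, 5 were higher and 1 lower (median 0.24). Odc1, ornithine decarboxylase, had 248, 261 and 274 CPM in polysomal RNA, against 214, 222 and 228 CPM in input (0.24 ± 0.04, adjusted p = 3.39e-05). Spermine synthase (Sms) stood at 0.59, the antizyme inhibitor Azin1 at 0.36 and S-adenosylmethionine decarboxylase (Amd1) at 0.35 ± 0.07. Oaz1, the antizyme that destroys ornithine decarboxylase, was lower (-0.20 ± 0.04), and this call was lost without the mouse block and with mice 1, 3 and 4 alone (-0.17).

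Replication-dependent histone mRNAs lack a poly(A) tail and end in a stem-loop. Of 55 core histone mRNAs, 39 were lower and 2 higher, 9 and 0 of them by at least 1.5-fold, with a median of -0.25 (-0.40 to -0.11 over mice). Coding genes of the core histones' lengths had a median of -0.16, and the median of the core histones' differences from it was -0.09. All 5 linker histone mRNAs were lower (median -0.31), among them Hist1h1c (-0.25). Hist1h4d had 1378, 1624 and 2274 CPM in polysomal RNA, against 1712, 1904 and 2764 CPM in input (-0.31 ± 0.05). The groups overlapped, because mice differed more from each other than the fractions did, but all 6 mice were lower. Histone genes of a family are near copies of each other, so reads between members are uncertain.

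A search on the sense strand for GG, 2 letters, CTTTT, 1 letter, AG, 2 letters and CC found the stem-loop in 37 of 41 core histone 3′ UTRs and in 54 of 11835 3′ UTRs (0.456%). Of the 37, 27 were lower and 0 higher. Families among the 37 differed: H2B genes ran from -0.69 to -0.47, and H2A genes from -0.28 to 0.07. Those of H3 and H4 lay between -0.34 and 0.01. Replication-independent histones, of which 1 of 10 held the letters, were higher in 6 cases and lower in 2, with a median of 0.18, and H3f3a was among the lower ones (-0.30 ± 0.04).

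Myc, the driver of these lymphomas, was close to the middle, in counts per symbol that do not separate the transgene from the endogenous gene. It had 739, 843 and 882 CPM in polysomal RNA, against 756, 911 and 958 CPM in input (-0.10 ± 0.04, adjusted p = 0.0317). The fractions overlapped, and the call was lost without mouse 1 (-0.10), 2 (-0.09), 3 (-0.10), 5 (-0.11) or 6 (-0.10), without the mouse block (-0.11), and with mice 1, 3 and 4 alone (-0.08). The p53 arm split: Trp53 had 139, 168 and 224 CPM in polysomal RNA, against 187, 210 and 245 CPM in input (-0.31 ± 0.04), while its ubiquitin ligase Mdm2 had 32.9, 38.2 and 41.6 CPM in polysomal RNA, against 20.0, 25.5 and 29.0 CPM in input (0.60 ± 0.04, adjusted p = 3.02e-08). Cdkn1a, a p53 target named after its values were seen, was at 0.08 and not called.

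Among survival genes, Mcl1 had 170, 191 and 222 CPM in polysomal RNA, against 135, 153 and 162 CPM in input (0.34 ± 0.05, adjusted p = 2.14e-05), and Bcl2 was at 0.47 ± 0.07. Both encode guards against apoptosis, but the family did not split by role. Pmaip1 and Bbc3, whose products promote apoptosis, were higher as well (0.57 and 0.47). Lower were Bcl2l2 (-0.47), another guard, and the promoters of apoptosis Bcl2l11 (-0.34) and Bad (-0.29). Of the 17 BCL2 family members, 4 were higher and 5 lower, with a median of -0.12. Relative to all genes that median was 0.08 without mouse 1, a change of sign. Pim1, a kinase that cooperates with Myc, was lower (-0.43 ± 0.04), with 31.5, 38.6 and 41.9 CPM in polysomal RNA and 45.1, 51.6 and 55.9 CPM in input. Cyclin Ccnd3 was lower by little (-0.17 ± 0.04), and this call was lost without the mouse block (-0.16) and with mice 1, 3 and 4 alone (-0.13).

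In the mTORC1 pathway 12 of 26 mRNAs were higher and 8 lower, with a median of -0.02. Pdcd4, an inhibitor of the helicase eIF4A, had 57.0, 64.6 and 82.7 CPM in polysomal RNA, against 23.1, 31.8 and 37.1 CPM in input (1.12 ± 0.05, adjusted p = 3.34e-10). Lamtor1, which anchors the Ragulator complex to lysosomes, had 22.7, 27.2 and 30.8 CPM in polysomal RNA, against 49.2, 51.9 and 67.0 CPM in input (-1.02 ± 0.05). Of the mRNAs called eIF4E-sensitive, 5 of 11 were higher and 3 lower (median 0.08).

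Classes of housekeeping and growth had medians near 0, with members that differed in either direction. The 36 proteasome mRNAs had a median of 0.06 (17 higher, 7 lower), 45 DNA replication mRNAs of -0.06 (16 and 18), 34 mRNAs of G2 and mitosis of 0.08 (16 and 9), 19 glycolysis enzymes of -0.01 (5 and 7) and 23 cholesterol synthesis enzymes of -0.11 (5 and 12). The 77 nuclear-encoded respiratory chain subunits, whose partners in the organelle were far lower, had a median of -0.02 (24 higher, 33 lower). Sdha, of complex II, had 366, 389 and 414 CPM in polysomal RNA, against 228, 243 and 253 CPM in input (0.69 ± 0.04), and Ndufa1, with 70 amino acids, stood at 0.91 ± 0.05. At the other end, Atp5g2, the ring subunit of ATP synthase, had 78.7, 81.1 and 95.5 CPM in polysomal RNA, against 141, 159 and 234 CPM in input (-1.02 ± 0.06).

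Proteins that enter the endoplasmic reticulum gave mixed values. Of 36 folding and translocation factors, 12 were higher and 15 lower (median -0.02), from the translocon factor Sec62 at 0.72 down to Ssr4, of the translocon-associated complex, at -1.02. B2m, the light chain of MHC class I, had 220, 259 and 299 CPM in polysomal RNA, against 435, 467 and 544 CPM in input (-0.84 ± 0.04, adjusted p = 8.99e-10). Ighm was at -0.37 ± 0.05 and Vpreb3 at -0.82 ± 0.04, while Cd79a was at 0.04 and not called (-0.01 without mouse 1). Of 28 interferon-stimulated mRNAs, 12 were higher and 7 lower (median 0.12), with Ifit2 at 0.94 and Irf7 at -0.90. Of 27 immediate early and AU-rich mRNAs, 4 were higher and 13 lower (median -0.12). Selenoproteins, whose UGA codons are read by a special tRNA, had a median of -0.04, with 7 of 18 higher and 5 lower, from Vimp at 0.95 to Sepw1 at -0.58.

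Nodes hold host cells as well as lymphoma, and their transcripts were measured in both fractions. Sums over markers are counts per M of the library without TMM scaling, while the calls beside them come from the scaled fit. A sum and its calls can therefore point in different directions. B cell markers summed to 3730 to 5129 CPM in polysomal RNA and 3896 to 4642 CPM in input, with 3 of 15 higher and 9 lower. T cell markers summed to 126 to 226 CPM in polysomal RNA and 127 to 187 CPM in input (1 of 22 higher, 5 lower), and NK cell markers to 10.1 to 14.9 CPM and 9.497 to 12.9 CPM in the same order (0 and 1 of 9). Myeloid markers summed to 611 to 898 CPM in polysomal RNA and 668 to 720 CPM in input (2 and 8 of 16). Stromal and endothelial markers summed to 1451 to 2259 CPM in polysomal RNA and 1318 to 1902 CPM in input (4 and 9 of 18). Plasma cell markers summed to 369 to 554 CPM in polysomal RNA and 433 to 507 CPM in input (0 and 5 of 6). All 6 tested erythroid markers of 10 listed were lower (median -0.82, from -0.96 to -0.27), and they summed to 980 to 1930 CPM in polysomal RNA and 1187 to 2864 CPM in input. Hba-a1, an alpha globin chain, had 186, 321 and 481 CPM in polysomal RNA, against 340, 600 and 761 CPM in input (-0.85 ± 0.04). The part of host cells in the values of genes that both host and lymphoma express was not tested.

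A few features took large and uneven shares of the polysomal libraries. Lars2, whose gene encodes the mitochondrial leucyl-tRNA synthetase, had 2672, 37390 and 203400 CPM in polysomal RNA, against 133, 352 and 983 CPM in input (6.09 ± 0.61 SE, adjusted p = 8.24e-07). The 3 highest polysomal values were in mice 2, 5 and 6 (203400, 142600 and 67480 CPM), and mice 1, 3 and 4 were at 3321, 2672 and 7300 CPM. Yam1 had 722, 14990 and 91260 CPM in polysomal RNA, against 171, 264 and 528 CPM in input. Lars2 and Yam1 together took 0.411 to 26.2% of polysomal and 0.0297 to 0.147% of input counts. With mice 1, 3 and 4 alone, 3533 genes were higher and 3615 lower, and the ribosomal protein median minus that of all genes was -0.71, against -0.64 with all mice. On the same scale mitochondrially encoded mRNAs were then at -2.26 and chaperones at 0.30. Mir6236, a miRNA entry, also varied, with 23.5, 64.0 and 202 CPM in polysomal RNA and 14.8, 17.6 and 23.9 CPM in input. Its log2 ratio was 3.07, 3.32 and 2.60 in mice 2, 5 and 6, against 0.47, 1.15 and 0.47 in mice 1, 3 and 4.

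All 42 nuclear genes of the rRNA biotype were higher, with a median of 3.01 and a wide range of 1.85 to 3.86 over mice. Since ribosomal RNA had been depleted before sequencing, their counts are what was left. The part of depletion in the ratio was not tested. The 32 of them with n-R5s names, which mark 5S rRNA, had a median level of 7.49 CPM in polysomal RNA and 1.08 CPM in input. 5S rRNA is part of the large ribosomal subunit, and since these copies are near identical, they count as 1 RNA and not as 32 results. In the other direction, Gm26870, a gene model chosen after its values were seen, had 39.4, 170 and 825 CPM in polysomal RNA, against 10510, 20740 and 30220 CPM in input. With Gm10800 it took 0.00652 to 0.138% of polysomal and 1.70 to 4.74% of input counts.

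The same ratio was measured in the 3 drug-naive lines, and the difference between nodes and lines was tested as an interaction. Of 16863 genes, 3965 (23.5%) had a higher ratio in vehicle nodes than in naive lines and 3204 (19%) a lower one. The first count was 2632 without line 38. Nodes and lines differ in clone, in growth in a mouse or in culture, and in the table they were deposited in, and these cannot be told apart. From the fit, the ratio of all genes had a median of -0.04 in nodes and -0.26 in lines. The 5007 genes at or above 5 log2 CPM on average had 0.07 in nodes and -0.01 in lines. The line values depended on the measure. Medians taken within single lines ran from -0.31 to 0 for all genes, with 0 in the middle line, and from 0.013 to 0.025 for the 5007 genes. The median of the gene differences between nodes and lines was 0.13 over all genes.

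The low ratio of ribosomal proteins was found in both settings: the median was -0.65 in nodes and -0.70 in lines, with 11 of 82 higher and 18 lower in nodes. Mitochondrially encoded mRNAs were lower in nodes than in lines, with medians of -2.13 and -1.62 (9 of 13 lower, 0 higher). Chaperones had medians of 0.29 in nodes and 0.93 in lines (22 of 29 lower, 0 higher), proteasome subunits 0.07 and 0.49 (23 of 36 lower, 2 higher), mRNAs of G2 and mitosis 0.10 and 0.77 (23 of 34 lower, 3 higher) and ribosome biogenesis factors 0.23 and 0.70 (32 of 63 lower, 15 higher). Chaperones, proteasome subunits, mitosis mRNAs and biogenesis factors thus lay above 0 in both settings and higher in the lines. The mRNAs with upstream reading frames, also above 0 in nodes, were not higher in the lines. Their medians from the fit were 0.28 in nodes and -0.11 in lines (6 of 15 higher in nodes, 3 lower). The sign in lines depended on the measure, since medians taken within single lines ran from 0 to 0.15. The median of the gene differences between nodes and lines was 0.18.

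Other classes went the other way. Immediate early mRNAs had a median of -0.10 in nodes and -0.86 in lines (14 of 27 higher, 1 lower), and ATF4 targets of -0.10 in nodes and -0.58 in lines (16 of 27 higher, 4 lower). Glycolysis enzymes had medians of 0.01 and -0.43 (10 of 19 higher, 1 lower). RNA polymerase III RNAs had medians of -2.35 in nodes and -4.29 in lines (5 of 10 higher, 1 lower). Among single genes, Jund, an AP-1 subunit, had a log2 ratio of 0.05 in nodes and -1.95 in lines (difference 2.00 ± 0.15 SE, adjusted p = 1.51e-05). Eif5b, the factor that joins the ribosomal subunits, had 0.13 in nodes and 1.65 in lines (difference -1.53 ± 0.18, adjusted p = 7.37e-05).

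**Figure D5:**
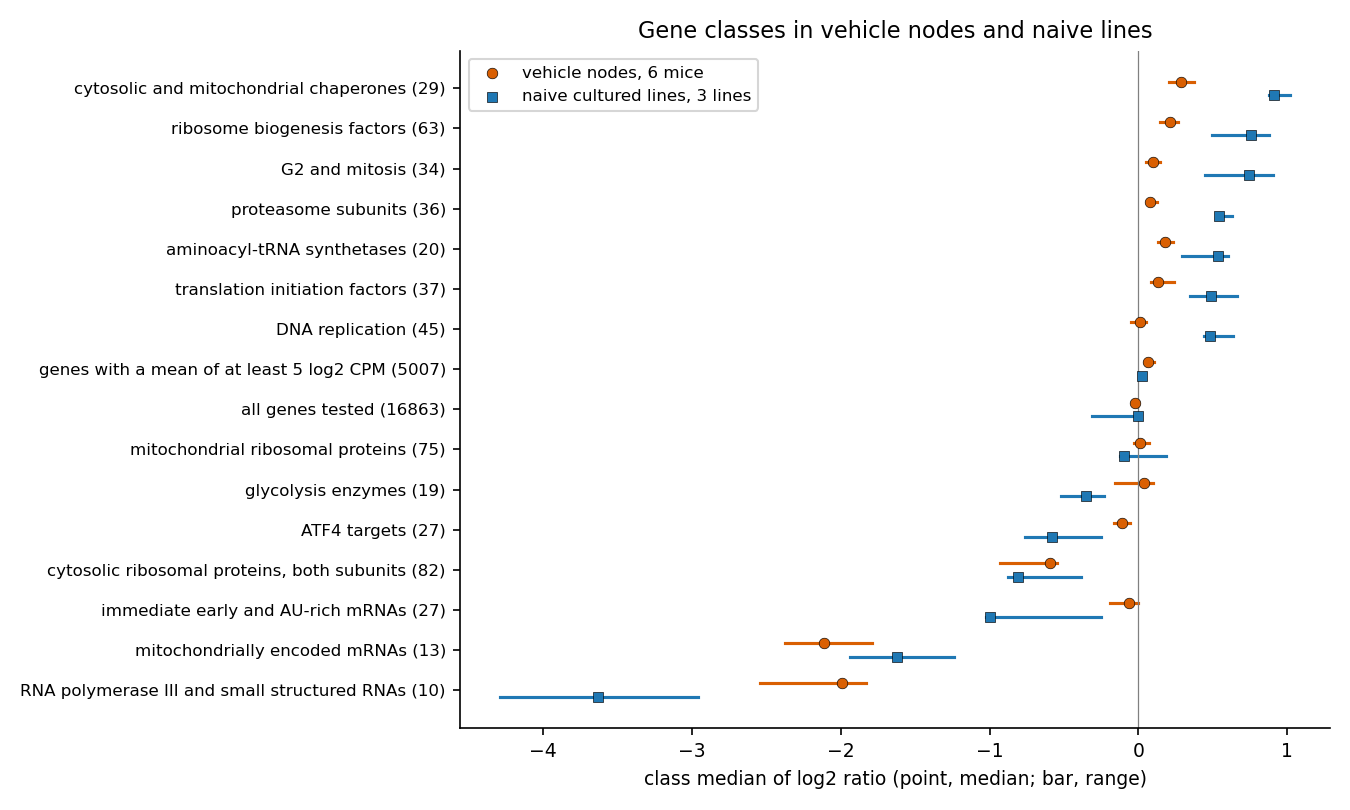
Class medians of the log2 polysomal over input ratio (horizontal axis) in vehicle nodes (orange circles, median of 6 mice) and in naive cultured lines (blue squares, median of 3 lines), with bars from the lowest to the highest mouse or line and the number of genes in brackets. Chaperone, mitosis and biogenesis classes are nearer to 0 in nodes than in lines, and the ribosomal protein ranges overlap.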

How the data were processed

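RNA was measured in 12 vehicle libraries of nodes and 6 libraries of naive lines. The authors deposited raw counts per gene symbol. Per the submitters' processing notes, TopHat2, HTSeq and GRCm38 were used; versions, annotation and strand are not given in the sources used here. Genes in both acute tables were joined by symbol, and counts of reads with no gene or several were left out of totals (5.79 to 26.0% with no gene in polysomal, 6.07 to 14.9% in input).

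Counts were tested with edgeR 4.0.16 in R 4.3.3 (quasi-likelihood, TMM, filterByExpr by fraction, a block on each mouse), with Benjamini-Hochberg adjustment over all genes tested and a threshold of 0.05. The script was tested on simulated data. Polysomal and input libraries of a number come from 1 lysate, and their deviations correlated by 0.261 to 0.629, each best with its own number in 6 of 6. Per-mouse ratios use a prior count of 2. Nodes and lines were compared by the setting by fraction term. Protein lengths, UTRs and biotypes came from GENCODE M21, which matched 14168 of the genes tested (94.2%). The alternatives were DESeq2 1.42.0, other scalings, no filter, no block, all 48 acute libraries, mice left out and mice 1, 3 and 4 alone.

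Genes were named by a rule: adjusted p under 0.05, an average level of 5 log2 CPM or more and 1 sign in all 6 mice, then the 10 largest changes per direction without gene models and pseudogenes, up to 3 called members per direction of each list, 5 per direction against lines, and a set of always-named genes. Other genes, such as the remaining members of small lists, were named after their values were seen. The members and the 42 lists were chosen with earlier results of these data known, and 3 lists and the Zfp names were added after their values were seen. A few genes of the lists are counted but not reported here by name.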

Additional observations from a re-analysis of the deposited data

Results flagged for a closer look

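Among 107 values with 1 point per mouse, 10 had a highest or lowest mouse far from the other 5 by Dixon's ratio; chance marks about 1 in 20 such groups. Mouse 4 was the far one in 5 of them. In that mouse the median of all ribosomal proteins lay 0.91 below that of all genes (-0.91), that of the large subunit at -0.83 and that of the small subunit at -1.02, and these 3 values hold the same genes. The nuclear-encoded respiratory chain was at -0.13 in mouse 4, where the other mice were between -0.02 and 0.02, and Amd1 had a log2 ratio of 0.80, where the next mouse was at 0.35. Mouse 2 was far from the others for the other TOP mRNAs (-0.18) and the erythroid markers (-0.57), mouse 3 for the replication-independent histones (-0.056), and mouse 6 for the stromal markers (0.022) and for the ratio of Ccnd3 (-0.30). Mouse 2 also had the shallowest polysomal library (11.53 M counts) and the largest share of Lars2 and Yam1 (26.2%); the part of these in its values was not tested.

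The genes whose ratio differed most between vehicle nodes and naive lines, by the interaction test over all genes, were as follows. Lars2 was higher in nodes by 6.89 ± 1.57 on the log2 scale (adjusted p = 0.00425) and Mir6236 by 3.14 ± 0.83 (adjusted p = 0.00974). Their line values were uncertain, at -0.79 and -1.22. In the lines, Lars2 and Yam1 together took 0.471 to 6.39% of input counts and 0.555 to 4.15% of polysomal counts. In nodes they took 0.0297 to 0.147% of input counts and 0.411 to 26.2% of polysomal counts. The part of these uneven shares in the differences was not tested. Without line 33 the difference was 5.33 for Lars2 and 2.20 for Mir6236, and without line 38 it was 8.49 and 3.82. Scarna2, a guide RNA of Cajal bodies, was higher by 2.72, with 1.98 without line 33 and 3.69 without line 6, and the 3 lines ran from -3.86 to -0.38. Beyond these, Emc10, of the endoplasmic reticulum membrane complex, was higher by 2.02 and Jund by 2.00. On the other side, Hbb-bt (-1.74) and Hbb-bs (-1.56), both beta globin genes, mt-Nd6 (-1.73), Eif5b (-1.53) and Pcbp2 (-1.48), a poly(C)-binding protein, were lower in nodes. For both globin genes the call was lost without a block on mouse or line.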

How the results depend on the processing

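Polysomal against input calls were shared with the reported ones by 74.3% (no replicate block) to 98.7% (RLE factors), with 0 calls in the opposite direction under any alternative run. Without the replicate block 3345 genes were higher and 3481 lower; DESeq2 gave 3841 and 3962, upper quartile factors 3716 and 5651, and leaving out each mouse 3961 to 4181 and 4505 to 4624. Without a count filter 27766 genes were tested, 2702 were at least 1.5-fold lower, and the median of all genes was -0.15. Class medians minus that of all genes changed sign by more than the SD between mice in 3 cases over the alternatives run: DNA replication was at 0.015 and Pim kinases at -0.014 with mice 1, 3 and 4, and the BCL2 family at 0.082 without mouse 1 (leave-one-out -0.16 to 0.082). Medians close to 0 also changed sign within that SD with a mouse left out (selenoproteins -0.0076 to 0.0063, respiratory chain -0.00070 to 0.058, glycolysis -0.0024 to 0.064). The class with upstream frames was at 0.25 with mice 1, 3 and 4. The length difference was -0.32 at up to 50% GC, a split chosen after the data were seen, and -0.27 to -0.22 with each mouse left out.

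Of 60 named genes followed, Actb, Ccnd3, Cd74, Fasn, Hist1h1c, Myc, Oaz1 and Tmsb10 lost their call without the replicate block. Sign changes among them, none of them called, were Tmsb4x (0.0069 without a filter), Cd79a (-0.012 with upper quartile factors; leave-one-out -0.0085 to 0.076), Ahnak (-0.036 with upper quartile factors, -0.16 with mice 1, 3 and 4; leave-one-out -0.057 to 0.083), Srrm2 (0.0027 with RLE factors and DESeq2, 0.023 without a filter; leave-one-out -0.028 to 0.010) and Igll1 (leave-one-out -0.68 to 0.13). Nodes against lines, leaving out each line gave 2632 to 5122 higher and 2651 to 4024 lower genes. The polysomal libraries of mice 2, 5 and 6 held the fewest counts outside Lars2 and Yam1. The cause of these changes was not tested.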

Other observations

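hnRNP mRNAs, a list added after Hnrnpd and Hnrnpa1 had been seen among the high ratios, were higher in polysomal RNA in 16 of 21 cases and lower in 1, with 9 at least 1.5-fold higher and a median of 0.53 (0.38 to 0.66 over mice). These proteins package and splice nuclear RNA. Hnrnpa2b1 had 1120, 1286 and 1400 CPM in polysomal RNA, against 716, 791 and 877 CPM in input, and Hnrnph1 had 327, 354 and 395 CPM in polysomal RNA, against 202, 215 and 241 CPM in input, with no overlap in either. Hnrnpk was not called (0.09 ± 0.04, adjusted p = 0.0742). The class median was 0.55 in nodes, against 1.06 in naive lines. Of 298 genes with Zfp names, most of which encode zinc finger proteins, 127 were higher and 34 lower, with a median of 0.17.

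Skeletal muscle mRNAs, also listed after their values were seen, were lower in 18 of 20 cases and higher in 0, with a median of -0.96. Their summed level, without TMM scaling, differed between mice, with 65.6 to 247 CPM in polysomal RNA and 96.4 to 648 CPM in input. Groups overlapped for every member. Ckm, the muscle creatine kinase, had 0.941, 7.26 and 13.5 CPM in polysomal RNA, against 8.81, 39.1 and 53.5 CPM in input (log2 ratio -2.23 ± 0.12 SE, adjusted p = 1.49e-09), lower in 6 of 6 mice. Adipocyte mRNAs were lower in 6 of 8 cases and higher in 1 (median -0.30). How much tissue around the node entered each lysate was not tested.

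Immunoglobulin variable segments were lower in 34 of 79 cases and higher in 1 (median -0.35), and constant segments in 7 of 9; segments of a family are near copies, so their reads are uncertain. Of 1102 processed pseudogenes, 487 were lower and 239 higher (median -0.19).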
